A study of Mus musculus with 24 samples.

Results

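The 4 genes described here, Slc1a3, Slc1a4, Slc16a5 and Slco2a1, encode carrier proteins of membranes. Slc1a3 and Slc1a4 carry amino acids, Slco2a1 carries prostaglandins, and Slc16a5 belongs to the monocarboxylate transporter family. All 4 were taken by name from the 82 genes for which the authors deposited expression values. Epithelial cells were sorted from male C57BL/6 mice that were either wild type (WT) or Smarcad1 knockouts (KO) made with Villin-cre, which drives recombination in the intestinal epithelium. Smarcad1 is a chromatin remodelling ATPase. Per the labels, the strain of the mice is C57BL/6 Lgr5-GFP, so that the Lgr5-GFP allele, which marks stem cells, was shared by WT and KO. Crypts of the small intestine gave Lgr5-GFP-high intestinal stem cells (ISC) and GFP-medium transit-amplifying cells (TA), villi of the small intestine gave Epcam-positive, CD31/45-negative cells (labelled AE), and colon crypts gave colon epithelium (CO) by that same Epcam gate. Each of the 8 groups had 3 libraries, 24 in all, and the age of the mice and the cre and flox status of the WT mice are not given in the labels. The floxed exons came from 1 embryonic stem cell clone, and the sort for CO and AE does not separate cell types within the epithelium.

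Solute carriers of the SLC families move small molecules across membranes, and in the gut the set that a cell carries changes as it leaves the crypt. Slc1a3 is the high-affinity glutamate and aspartate transporter best known from glia, and Slc1a4 exchanges small neutral amino acids such as alanine, serine, cysteine and threonine. Slc16a5 belongs to the monocarboxylate transporter family, and Slco2a1 is the prostaglandin transporter, which takes prostaglandins such as prostaglandin E2 into cells.

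The deposited tables give, for each gene and group, 1 value: the authors' mean over 3 libraries of log2 reads normalised to total reads. No value per library was given with them, so no spread, interval or test could be computed, the depth behind a value is unknown, and every difference below is a description of 2 means. A difference of 1 on this log2 scale is a doubling. The genes were chosen by measured values: a gene has a row because the study called it in at least 1 of the 4 sorted cell types, Slc1a3 and Slc1a4 in TA, Slc16a5 and Slco2a1 in CO. Their differences in those sorts are therefore given with nothing read from them, whereas their values in the other 3 sorts come from other libraries. The authors sorted ISC and TA at the same time from crypt suspensions, so ISC and TA libraries may share mice. The ISC differences of Slc1a3 and Slc1a4 are therefore not shown to be independent of their TA differences. Whether AE and CO libraries share mice with each other or with ISC and TA is not given in the sources used here. Differences in those sorts are therefore not shown to be independent either. All 4 genes lay between 0.68 and 7.37, at least 5.81 log2 above the lowest value of their column. In these bulk samples, fewer cells of a type and less RNA per cell cannot be told apart.

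Smarcad1 itself, the deleted gene, had lower means in KO in all 4 sorts, from 5.62 to 4.85 in ISC, 5.36 to 4.49 in TA, 4.27 to 3.67 in AE and 5.44 to 4.57 in CO. The floxed exons are a part of the gene, so reads from its other exons can remain. Of the marker lists, 3 of 8 goblet and Paneth cell markers had values (Spink4, Itln1 and Lyz1). Their summed level was higher in KO in each sort, at 10.5 in WT and 11.9 in KO ISC, 10.6 and 11.7 in TA, 8.25 and 9.63 in AE, and 8.96 and 9.24 in CO, on the log2 scale. Spink4 was listed for AE, Itln1 for TA and AE, and Lyz1 for AE and CO, so their direction there was part of why they had values. Spink4 differed by -0.01 in TA and alone stood at 8.95 in WT CO. Of 5 immune markers, 2 had values (Cd74 and Cd244), and their summed log2 level was 8.67 in WT and 8.88 in KO ISC, 7.38 and 8.08 in TA, 7.80 and 6.16 in AE, and 3.43 and 0.89 in CO. Cd74 had been listed for CO and Cd244 for TA, with the same limit. None of the 5 enteric glia and nerve markers, the 4 endothelial markers or the 3 cycling markers had a value, and they are not analysed here. Of 5 stem cell markers only Ascl2 had one, in WT 6.05 in ISC, 4.24 in TA, 3.84 in CO and -0.18 in AE, and of 12 absorptive markers only Mep1a, in WT 7.92 in AE, 7.63 in CO, 5.72 in ISC and 5.43 in TA. The part of these markers in the differences of the carriers was not tested.

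Slc1a3, the glutamate and aspartate transporter, was highest in the crypt sorts of the small intestine in WT. Its mean log2 level was 5.88 in ISC and 5.79 in TA, against 1.96 in AE and 1.18 in CO. ISC and TA thus differed by only 0.09, while AE minus ISC came to -3.91, a 15.1-fold lower level in AE. KO means were lower in all 3 sorts of the small intestine: 5.04 in ISC, 4.90 in TA and 0.68 in AE. KO thus stood at 55.9%, 53.7% and 41.1% of WT, with TA the sort through which the gene was chosen. In CO the KO mean was higher, 2.12 against 1.18, or 192% of WT. Because KO was lower in AE and higher in CO, the CO minus AE gap changed sign between the genotypes, from -0.79 in WT to 1.44 in KO. Levels in AE and CO were low, on the linear scale 3.90 in WT and 1.60 in KO AE, and 2.26 and 4.34 in CO. With a pseudocount of 1 added before the log, the KO minus WT differences were -0.91 in AE and 0.71 in CO.

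**Figure D1:**
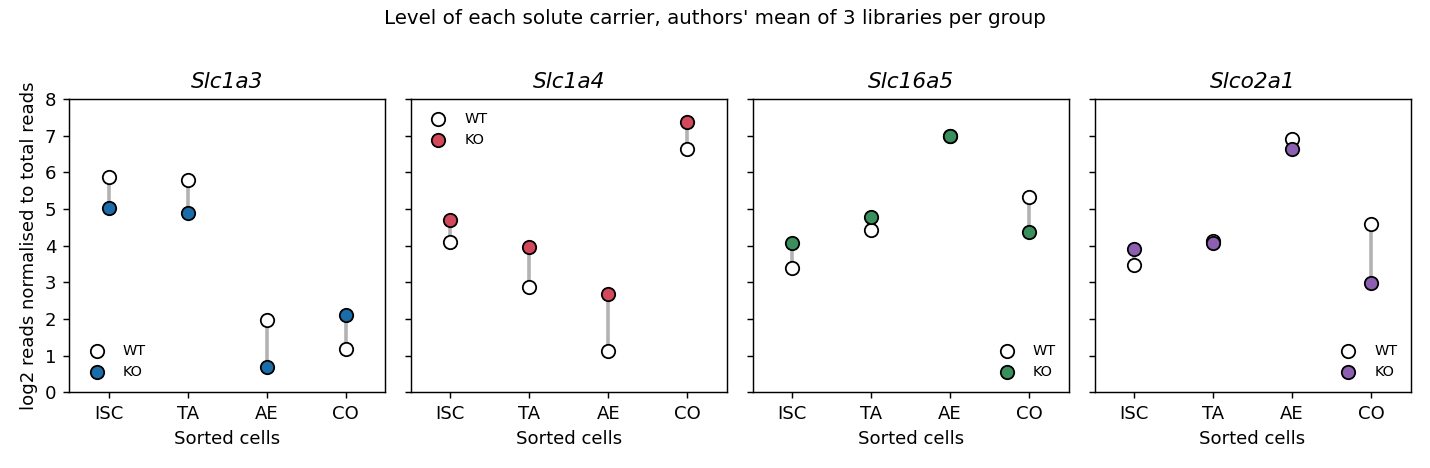
Mean log2 reads normalised to total reads (y axis) of the 4 carriers in the 4 sorted cell types (x axis), with open points for WT and filled points for KO, each the authors' mean of 3 libraries with no error available. Slc1a3 is high in ISC and TA, Slc1a4 is highest in CO, and Slc16a5 and Slco2a1 are highest in AE. Slc16a5 and Slco2a1 have KO means below WT in CO, the sort through which both were chosen.

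Slc1a4, the neutral amino acid exchanger, had higher KO means in all 4 sorts, opposite to Slc1a3 in the small intestine and like it in CO. Its WT means were 6.62 in CO, 4.09 in ISC, 2.86 in TA and 1.11 in AE. The range of 5.51 log2 between CO and AE, a 45.5-fold difference, was the widest in WT among the 4 carriers. The KO means were 7.37 in CO, 4.71 in ISC, 3.97 in TA and 2.68 in AE. They amounted to 167% of WT in CO, 153% in ISC, 215% in TA and 295% in AE. The order of the sorts was the same in both genotypes, CO above ISC, TA and AE. The log2 differences were 1.56 in AE, 1.10 in TA, 0.74 in CO and 0.62 in ISC. The AE difference is the one that depends most on how low values are treated, at 1.22 once a pseudocount of 1 is added before the log.

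**Figure D2:**
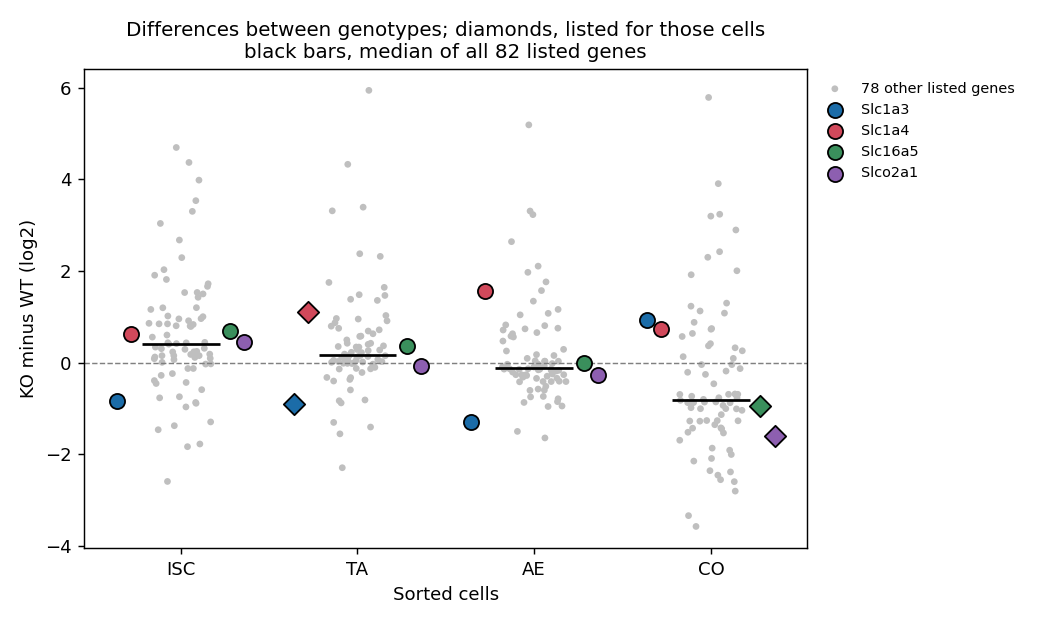
KO minus WT difference in mean log2 level (y axis) in each sorted cell type (x axis) for the 4 carriers (coloured; diamonds where the gene was listed for that sort) and the 78 other listed genes (grey), with black bars at the median of all 82. Slc1a3 lies below 0 in ISC, TA and AE and above 0 in CO, and Slc1a4 lies above 0 in all 4 sorts. Slc16a5 and Slco2a1 each have their lowest difference in CO. Nothing is read from the TA differences of Slc1a3 and Slc1a4 or the CO differences of Slc16a5 and Slco2a1, through which these genes were chosen.

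Slc16a5, the monocarboxylate transporter family member, was highest in the villus. In WT it had a mean log2 level of 7.0 in AE, 5.32 in CO, 4.42 in TA and 3.38 in ISC, with AE 12.2-fold above ISC. In AE the KO mean was also 7.0, 100.1% of WT. The crypt sorts had higher KO means, 4.08 in ISC (162% of WT) and 4.79 in TA (129%), and CO had a lower one, 4.38 (52.1%).

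Slco2a1, the prostaglandin transporter, followed a similar order. WT means were 6.90 in AE, 4.59 in CO, 4.14 in TA and 3.47 in ISC, with AE 10.8-fold above ISC. The KO mean in CO was 2.99, or 32.8% of WT, a log2 difference of -1.61 in the sort through which the gene was chosen. In the small intestine the KO means were 3.92 in ISC (136% of WT), 4.06 in TA (94.9%) and 6.64 in AE (83.5%).

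The means of Slc16a5 and Slco2a1 over the 8 groups had a Pearson correlation of 0.94, and over the 4 WT groups of 0.97, whereas the correlation of Slc1a3 with Slc1a4 was -0.12 over 8 groups and the other 4 pairs lay between -0.77 and -0.52. These 8 points are group means that share cell type and library preparation and are not independent. The coefficients therefore only describe how the group means of a pair vary together. Their AE minus ISC gap was 3.61 in WT and 2.92 in KO for Slc16a5, and 3.43 and 2.72 for Slco2a1. The gap also narrowed in size for Slc1a4, from -2.98 to -2.03, and it was wider for Slc1a3, from -3.91 to -4.36. The listed genes as a whole were higher in KO ISC and slightly lower in KO AE. That shift has the sign of the changes of Slc16a5, Slco2a1 and Slc1a3, and is opposite to that of Slc1a4. Relative to the median of the genes not listed for each sort, the change in the gap was -0.20 in place of -0.70 for Slc16a5, -0.21 in place of -0.71 for Slco2a1, 1.45 in place of 0.95 for Slc1a4, and 0.06 in place of -0.45 for Slc1a3, where the sign turned. None of these changes in a gap could be tested.

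Levels were compared between the 4 genes only per length, as log2 normalised reads per kb of exon, with the exons of all annotated isoforms merged. In WT ISC, Slc1a3 (2.78) and Slc1a4 (2.12) lay above Slc16a5 (1.5) and Slco2a1 (-0.29). In WT AE the order turned round, with Slc16a5 at 5.11 and Slco2a1 at 3.14 and the 2 amino acid carriers at -0.86 (Slc1a4) and -1.13 (Slc1a3). In WT CO, Slc1a4 led at 4.65, followed by Slc16a5 at 3.43, Slco2a1 at 0.83 and Slc1a3 at -1.92. KO ISC had Slc1a3 at 1.95, Slc1a4 at 2.74 and Slc16a5 at 2.19. The merged exon length also counts rarely used exons, and several of these orders turned with the length of the principal transcript instead. Slc16a5 then lay above Slc1a4 in WT ISC, at 2.34 against 2.12, and in KO ISC Slc1a3 (2.98) lay above Slc1a4 (2.74), with Slc16a5 at 3.04. Slc1a3 lay above Slc1a4 in WT AE, at -0.09 against -0.86, and Slco2a1 lay above Slc1a4 in WT TA, at 1.30 against 0.89. With either length Slc16a5 and Slco2a1 were the first and the second in WT AE, and Slc1a4 the first in WT CO.

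**Figure D3:**
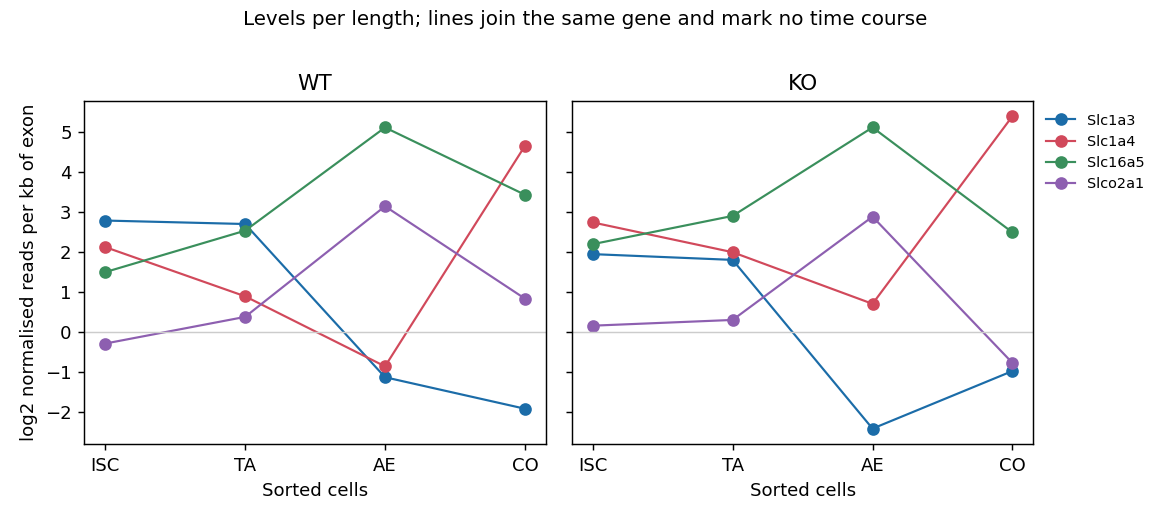
Level per length of the 4 carriers, as log2 normalised reads per kb of merged exons (y axis), in the 4 sorted cell types (x axis) of WT (left) and KO (right), where lines join the values of 1 gene and mark no time course. Slc16a5 is the highest in AE at 5.11 in both genotypes and Slc1a4 the highest in CO.

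The differences were next set beside those of all 82 listed genes, each of which had been called in at least 1 sort. A difference of at least 1 log2 in either direction was held by 34.1% of the 82 genes in ISC and by 0 of the 4 carriers. In TA it was held by 22.0% of the genes and by 1 carrier, Slc1a4, one of the sort's own listed genes, and in AE by 19.5% and by 2 carriers, Slc1a3 and Slc1a4, neither listed for AE. With a pseudocount of 1, Slc1a3 in AE (-0.91) no longer reached that limit. The share was 53.7% in CO, with 1 carrier, Slco2a1, which was listed there. In AE the Slc1a3 difference was at place 3 from the lowest of the 82 and that of Slc1a4 stood at place 9 from the highest. The absolute differences of the 4 carriers had medians of 0.66 (ISC), 0.63 (TA), 0.77 (AE) and 0.94 (CO), against 0.80, 0.37, 0.41 and 1.02 for all 82 genes. The TA and CO medians of the carriers include the differences through which the carriers were chosen, so nothing is read from them. For all 82 genes the signed differences had medians of 0.41 (ISC), 0.18 (TA), -0.11 (AE) and -0.81 (CO). Relative to it, Slco2a1 in ISC was close to 0 (0.04) and Slc16a5 in CO was -0.13, whereas Slc1a3 was -1.25 in ISC. The CO median includes 56 genes listed for CO, 44 of them lower in KO. Over the 26 genes not listed for CO the median was 0.11, and relative to that Slc16a5 was -1.05 and Slco2a1 -1.72 in CO. Both carriers were chosen through CO, so nothing is read from their CO values against either median.

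Other carriers and genes of absorptive cells were read from lists of known members. Of 29 further amino acid carriers 1 had values, Slc6a19, the neutral amino acid transporter of the enterocyte brush border. Its WT mean was 9.43 in AE, 4.48 in TA, 2.94 in ISC and -0.81 in CO. KO means were 9.36, 4.98, 4.61 and 1.62, so that Slc6a19 was 2.42 higher in KO CO, or 1.37 with a pseudocount of 1, its WT level there being low. None of 12 genes on a list for monocarboxylate transport, and none of 17 genes of prostaglandin handling, had a value. They are not analysed here. The remaining listed solute carriers were Slc9a2, a sodium/proton exchanger, and Slc25a20, the mitochondrial carnitine/acylcarnitine carrier. Slc9a2 had a WT mean of 7.30 and a KO mean of 6.30 in CO, and Slc25a20 had 5.96 and 5.27 there. In the other sorts their differences lay between -0.28 and 0.29.

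Of 20 genes of mature absorptive cells, 7 had values: Slc9a2, Slc25a20, the brush border protease Mep1a, the carboxylesterase Ces2e, the cytochrome P450 Cyp2c65, the dehydrogenase Dhrs11 and the chloride channel family member Clic5. All 7 had higher KO means in ISC (median difference 0.80) and TA (0.29), and lower means in AE (-0.25) and CO (-1.0). Most of the 82 genes had these signs as well: 60 were higher in ISC, 57 higher in TA, 49 lower in AE and 56 lower in CO. All 7 were listed for CO and none for another sort, so their CO direction was part of how they came to be in the tables.

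**Figure D4:**
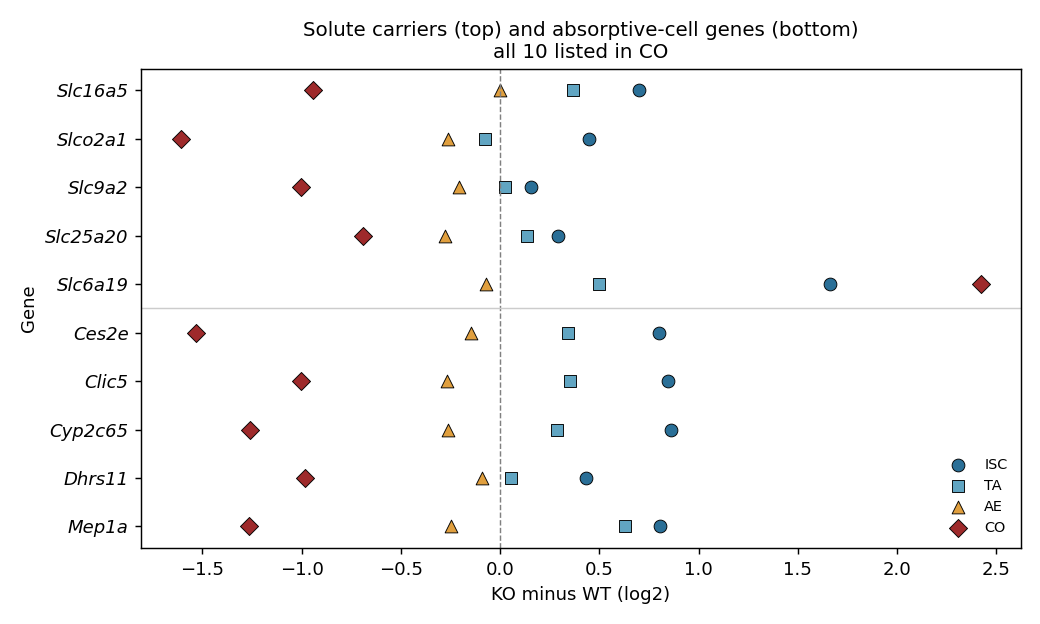
KO minus WT difference in mean log2 level (x axis) of 5 solute carriers (top) and 5 genes of absorptive cells (bottom), all listed for CO, with 1 symbol for each sorted cell type. In CO, 9 of the 10 genes lie below 0 and Slc6a19, with a low WT level there, lies at 2.42 (1.37 with a pseudocount of 1), while in ISC all 10 lie above 0.

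By the Pearson correlation over the 8 group means, the 3 listed genes most like Slc16a5 included Myo15b (0.99) and Lrp1 (0.98), and the 3 most like Slco2a1 included Lrp1 and the brush border cadherin Cdhr2 (each 0.98). These genes were themselves listed for CO. Myo15b had WT means of 10.8 in AE and 9.0 in CO, and a KO mean of 7.87 in CO. The genes most like Slc1a3 were Pxdn, a peroxidase of the extracellular matrix (0.93), AY036118 (0.91) and Apobec3, a cytidine deaminase that restricts retroviruses (0.77). AY036118 had means of 6.64 in WT and 4.87 in KO ISC and of 7.11 and 5.81 in TA, and Apobec3 had 6.64 and 5.78 in ISC and 6.53 and 5.70 in TA. In CO, where Slc1a3 was higher in KO, Pxdn was also higher (0.56 in WT and 1.86 in KO), while AY036118 and Apobec3 were lower. For Slc1a4 they were Mctp1 (0.93), the lipopolysaccharide receptor Tlr4 (0.91) and the lipid transporter Abca12 (0.82). These 3 lay near the bottom of the scale in AE, at -5.17, -4.25 and -5.17 in WT, and had their highest WT means in CO, at 2.13, 4.41 and 4.17. They were also low in WT ISC, at -4.61, -2.42 and -4.23, and in WT TA, at -4.82, -4.57 and -5.40. By the Spearman coefficient over the 8 groups, their likeness to Slc1a4 was 0.98 (Mctp1), 0.79 (Tlr4) and 0.55 (Abca12). How far the likeness rests on CO was not computed. In KO CO, Mctp1 and Tlr4 were higher, as Slc1a4 was, and Abca12 was lower, at 1.37.

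In the GRCm38 build, Slc1a3 (ENSMUSG00000005360) spans chr15:8634124-8710764 on the minus strand, Slc1a4 (ENSMUSG00000020142) chr11:20302180-20332713 on the minus strand, Slc16a5 (ENSMUSG00000045775) chr11:115462474-115474398 on the plus strand, and Slco2a1 (ENSMUSG00000032548) chr9:102988712-103096002 on the plus strand. The positions in the files matched the GENCODE annotation for 4 of 4 genes. The deposited row of Slc16a5 also names Gm11695, an antisense gene at chr11:115462045-115463454 that shares 104 of its exonic bases (2.81%). Whether the counting used strand was not stated, so reads in that stretch cannot be assigned to 1 of the 2 genes. Stretches of 50 bases, the read length, that also occur in exons of another gene made up 0.70% of those of Slc1a3, 0% of Slc1a4, 1.49% of Slc16a5 and 1.28% of Slco2a1.

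Promoters from RefSeq (GRCm38.p6), which hold 250 bases before and 50 after a start site, were matched for 3 of the 4 genes, and Slc16a5 was not matched. The 2 amino acid carriers had differences of opposite sign in ISC, AE and TA, the last being the sort through which both were chosen. They and the prostaglandin transporter are shown so that their start sites can be compared. Each sequence runs 5′ to 3′ on the gene's strand, to 30 bases into the transcript, and capitals mark matches on either strand to 3 elements. The first is the box TATAAA, found shortly upstream of many start sites. Another is GGGCGG, the element to which the Sp family binds. The last, an element for paired C/EBP and ATF factors that was added after the Slc1a4 sequence had been seen, is spelled TGATGCAA.
Slc1a3: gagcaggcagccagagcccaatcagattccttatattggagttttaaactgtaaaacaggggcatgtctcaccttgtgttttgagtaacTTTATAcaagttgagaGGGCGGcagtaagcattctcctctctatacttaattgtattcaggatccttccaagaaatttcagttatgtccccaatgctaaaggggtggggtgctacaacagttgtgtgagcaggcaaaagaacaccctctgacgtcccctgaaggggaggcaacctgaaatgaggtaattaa
Slc1a4: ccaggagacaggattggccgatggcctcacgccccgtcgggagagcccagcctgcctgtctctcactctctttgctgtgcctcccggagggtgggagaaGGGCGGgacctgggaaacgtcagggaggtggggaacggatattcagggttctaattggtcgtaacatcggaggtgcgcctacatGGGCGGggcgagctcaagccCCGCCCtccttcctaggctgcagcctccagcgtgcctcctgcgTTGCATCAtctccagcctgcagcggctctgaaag
Slco2a1: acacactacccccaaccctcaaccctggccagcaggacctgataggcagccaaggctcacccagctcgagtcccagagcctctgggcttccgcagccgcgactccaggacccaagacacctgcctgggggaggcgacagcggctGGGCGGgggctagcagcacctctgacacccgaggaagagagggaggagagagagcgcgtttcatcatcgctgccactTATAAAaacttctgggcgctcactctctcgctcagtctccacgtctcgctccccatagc
They lie on the minus strand at chr15:8710778-8711057 and chr11:20332684-20332963 and on the plus strand at chr9:103008237-103008516. Slc1a3 has the promoter poorest in G and C, 45.3%, a share that 23.1% of all promoters fall below, with 3 CpG in the whole window, and its start lies outside the GENCODE span of the gene. Slc1a4 has 65.0% G and C and 21 CpG, and Slco2a1 64.0% and 18. No GENCODE transcript begins at the start used here for Slco2a1 or for Slc1a3, whereas 1 begins at that of Slc1a4. TATAAA begins 29 bases before the start of Slco2a1, and its reverse complement TTTATA 161 bases before that of Slc1a3. It occurs in 13.6% of 32851 promoters. GGGCGG matched 3 times in Slc1a4 and once each in the others, and occurs in 35.7% of promoters. TGATGCAA matched in Slc1a4 alone, as its reverse complement TTGCATCA from 4 bases before the start, and occurs in 0.895% of promoters, 294 of them. These matches are letters in a window and do not show that a factor binds there.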

How the data were processed

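Polyadenylated RNA of sorted mouse intestinal epithelial cells (24 libraries, 3 in each of 8 groups) was sequenced as single-end reads of 50 bases. Per the labels, the authors trimmed reads with Trim Galore 0.4.4 and mapped them with HISAT2 2.1.0 to GRCm38. They then counted reads over the exons of merged isoforms in SeqMonk, normalised to total reads and took the log2. The deposited log2 values are the authors' means over the libraries of a group. Whether libraries were averaged on the log scale is not given in the sources used here. The tables list 82 genes in all (7 ISC, 15 TA, 20 AE and 56 CO listings) that passed a false discovery rate of 0.1 in the authors' DESeq2 comparison. A column holds that rate and was not used.

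From these values KO minus WT differences, gaps between sorts, Pearson correlations over groups and levels per kb of merged GENCODE exons were computed with Python 3.11.15, pandas 2.3.3 and numpy 2.4.6, and the calculations were tested on simulated data. The named genes were the 4 carriers, Smarcad1, every other listed solute carrier and the 3 listed genes most like each carrier. The genes of lists that also had values were named too. A gene that these rules select is not reported here and was left out of its list. The members and lists were chosen with earlier results of these data known. Alternatives were a pseudocount of 1, raising values to at least 0.1, centring on the median of the unlisted or of all listed genes, a limit of 0.5 in place of 1, a log2 level of at least 0, the Spearman coefficient, WT groups alone and, both added after the data had been seen, the length of the principal transcript and the centring of gaps. With no value per library, no test, interval, comparison of replicates or check of batches could be made, and totals per library are unknown here.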

Additional observations from a re-analysis of the deposited data

How the results depend on the processing

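No paired analysis was possible because the files hold group means with no value per library, and for that reason no library could be left out. No KO minus WT difference of the 4 carriers changed sign under any alternative run. With a pseudocount of 1, 12 of the 16 differences moved by less than 0.1, and the others became -0.91 (Slc1a3 in AE), 0.71 (Slc1a3 in CO), 1.22 (Slc1a4 in AE) and -1.49 (Slco2a1 in CO). Raising values to at least 0.1 moved none. Both centrings moved all 16. Relative to the median of the genes not listed for a sort, the differences of Slc1a3, Slc1a4, Slc16a5 and Slco2a1 were -1.18, 0.28, 0.36 and 0.11 in ISC, -1.05, 0.95, 0.21 and -0.23 in TA, -1.12, 1.72, 0.16 and -0.10 in AE, and 0.83, 0.63, -1.05 and -1.72 in CO. Relative to the median of all 82 genes they were, in that order, -1.25, 0.21, 0.29 and 0.036 in ISC, -1.07, 0.93, 0.19 and -0.25 in TA, -1.17, 1.68, 0.11 and -0.15 in AE, and 1.75, 1.55, -0.13 and -0.80 in CO. The WT AE minus ISC gaps became, with a pseudocount, -3.61, -2.51, 3.49 and 3.32, and the CO minus AE gaps became -0.59 for Slc1a3 and 4.97 for Slc1a4, with the other two the same within 0.1. In the KO groups the AE minus ISC gaps were -4.36, -2.03, 2.92 and 2.72 and the CO minus AE gaps 1.44 (the sign reversed for Slc1a3), 4.69, -2.62 and -3.65. The KO minus WT change of the AE minus ISC gap of Slc1a3, -0.45, reversed to 0.055 relative to the unlisted genes and to 0.078 relative to all 82, and both centrings moved those of the other 3 carriers. At a limit of 0.5 log2, 49 (ISC), 34 (TA), 36 (AE) and 69 (CO) genes passed, against 28, 18, 16 and 44 at 1. A minimum log2 level of 0 kept each of these 4 counts within 1.5 times. Of the 3 genes most like Slc1a4, 1 stayed among the first 3 with the Spearman coefficient and 1 with the WT groups alone. With the length of the principal transcript, the level per kb of Slco2a1 in WT ISC changed sign, to 0.64. The cause of these changes was not tested beyond what each alternative's own construction does to the values.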
